A study of Mus musculus with 5 samples.

Results

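Growth control was examined through 10 genes in mouse mammary tumours: the oncogene Myc, the D-type cyclins Ccnd1 and Ccnd2, the cyclin-dependent kinase inhibitors Cdkn1a, Cdkn1b and Cdkn2a, the retinoblastoma gene Rb1, and Trp53 with its targets Mdm2 and Ccng1. The genes were chosen by name, and all 10 were found among the 41028 gene names of the count matrices. Their levels were compared between epithelial and stromal cells and between cycling and non-cycling cells. The tumours came from PyMT mice, which carry the polyoma middle T antigen as a mammary oncogene. The promoter driving it, the age of the mice and any pooling of tumours are not stated in the labels. Tumours were digested and enriched for viable cells, and single cells were profiled on the droplet-based 10x Chromium 3' v2 system or on the microwell-based BD Rhapsody whole transcriptome assay. On both systems, captured transcripts carry a molecular barcode (unique molecular identifier, UMI), and values here count UMIs rather than reads. All tumours shared the PyMT background, and no tumour-free mammary gland entered the comparisons.

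Fresh 10x comprised 2 libraries, here called fresh 10x 1 and fresh 10x 2. Stored 10x was 1 library of a digest that was kept at 4 °C, for 24 h according to its title. BD Rhapsody gave 2 libraries, BD 1 and BD 2. BD 1 was labelled fresh, whereas the title of BD 2 says fresh and its files are named for 24 h, so no storage state was assumed for BD 2. Nothing states that the libraries came from separate mice, so the p-values measure the spread between these libraries, which may be technical.

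As background, growth factor and oncogene signals raise D-type cyclins, which activate Cdk4 and Cdk6. These kinases phosphorylate the retinoblastoma protein and release E2F factors that drive S-phase genes. Cdkn1a (p21) and Cdkn1b (p27) restrain cyclin-dependent kinases, and the Cdkn2a locus encodes p16Ink4a, an inhibitor of Cdk4 and Cdk6, and p19Arf, which shields p53 from Mdm2. The p53 protein activates Cdkn1a, Mdm2 and Ccng1 among many targets, Mdm2 marks p53 for degradation, and Myc drives ribosome and nucleotide synthesis genes. Middle T antigen signals through Src, PI3 kinase and Shc, and cyclin D1 is the D-type cyclin most closely tied to mammary epithelium.

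The libraries held 1864 to 4078 cells with at least 200 genes, and 29166129 to 59957945 UMIs each, with a median of 8926 to 12474 UMIs per cell. Cells were clustered without the 10 genes, the cell cycle genes or the gene lists used here. Epithelial-like clusters held 1358 to 2958 cells per library. Stroma, defined as fibroblast-, endothelial- and mural-like clusters (mural cells ensheathe vessels), held 249 to 433. The summed epithelial markers reached 3760 to 7043 UMIs per 1000000 UMIs (CPM) in epithelial cells and 127 to 707 in stroma, whereas fibroblast markers reached 71.5 to 140 CPM in epithelial cells and 30892 to 61806 in stroma. Endothelial cells formed 39.7%, 35.9%, 20.3%, 11.5% and 5.22% of the stromal cells of fresh 10x 1, fresh 10x 2, stored 10x, BD 1 and BD 2. BD 1 and BD 2 shared 24 cell barcodes, and other pairs of libraries shared at most 5. The doublet caller marked at most 21 cells in a library and had little power here, so doublets were largely kept. The T cell-like cluster was also led by the plasma cell genes Igha and Jchain, and an epithelial-like cluster was led by haemoglobin genes.

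All coordinates refer to GRCm38, the build that the submitters' processing notes call mm10. Ccnd1 lies at chr7:144929931-144939925 on the minus strand and Ccnd2 at chr6:127125162-127152193 on the minus strand. Rb1 lies at chr14:73183673-73325822 on the minus strand and Myc at chr15:61985391-61990374 on the plus strand. Cdkn1a lies at chr17:29090976-29100727 (plus), Cdkn1b at chr6:134920401-134925513 (plus) and Cdkn2a at chr4:89274471-89294653 (minus). Trp53 lies at chr11:69580359-69591873 (plus), Mdm2 at chr10:117688875-117710758 (minus) and Ccng1 at chr11:40748552-40755311 (minus). The annotated Cdkn2a transcripts start at positions 89294653 and 89282192 and end close together, at 89274541 and 89274471, so the counts, which are per gene and from 3' ends, do not separate p16Ink4a from p19Arf. Genes on the opposite strand have an exon within the last 500 bases of the annotated span of Ccnd1 and of Rb1. Use of strand in counting is not given in the sources used here. For Rb1 the span ends at 73183673 with Rb1-202, a transcript not annotated as coding, whereas the coding transcript Rb1-201 ends at 73195502. Whether that exon reaches the 3' end of the coding Rb1 transcript was not tested. Of these neighbours, Oraov1 beside Ccnd1 had a mean of 11.9 CPM in epithelial cells and 12.5 CPM in stroma, and Rcbtb2 beside Rb1 had 30.7 and 37.3 CPM. Lpar6, on the opposite strand with an exon overlapping one of Rb1, had 48.6 and 27.7 CPM (difference 1.04, edgeR adjusted p = 0.0346). The part of these neighbours in the counts was not tested.

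The 250 bases upstream of the start sites below are shown for the 3 p53 targets and for both starts of Cdkn2a, because the first group is read here as a set and the second has distinct promoters behind one 3' signal. Sequences are from RefSeq on GRCm38.p6, written 5' to 3' on the gene's strand, and 6 of the 10 genes matched that table. Capitals mark matches, on either strand, to the p53 decamer, to the GC box GGGCGG, to CCAAT and to the E2F words TTTCCCGC, TTTCGCGC, TTTGCCGC and TTTGGCGC; the E-box CACGTG was searched too.
Cdkn1a, first start: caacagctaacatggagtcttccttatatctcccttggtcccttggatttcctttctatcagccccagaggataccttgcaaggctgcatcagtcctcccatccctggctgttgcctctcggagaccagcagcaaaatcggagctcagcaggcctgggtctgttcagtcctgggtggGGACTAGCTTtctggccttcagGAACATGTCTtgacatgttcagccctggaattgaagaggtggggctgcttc
Mdm2: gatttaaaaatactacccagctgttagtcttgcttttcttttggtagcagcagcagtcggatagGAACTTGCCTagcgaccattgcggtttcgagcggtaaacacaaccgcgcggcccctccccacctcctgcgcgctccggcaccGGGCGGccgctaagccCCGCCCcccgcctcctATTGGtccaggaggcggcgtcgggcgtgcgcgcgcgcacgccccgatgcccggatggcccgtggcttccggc
Ccng1: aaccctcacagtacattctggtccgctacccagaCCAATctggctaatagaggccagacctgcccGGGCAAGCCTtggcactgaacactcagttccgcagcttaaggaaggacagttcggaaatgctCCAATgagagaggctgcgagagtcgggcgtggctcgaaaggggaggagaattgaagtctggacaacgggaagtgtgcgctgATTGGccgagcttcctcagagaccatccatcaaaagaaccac
Cdkn2a, upstream start: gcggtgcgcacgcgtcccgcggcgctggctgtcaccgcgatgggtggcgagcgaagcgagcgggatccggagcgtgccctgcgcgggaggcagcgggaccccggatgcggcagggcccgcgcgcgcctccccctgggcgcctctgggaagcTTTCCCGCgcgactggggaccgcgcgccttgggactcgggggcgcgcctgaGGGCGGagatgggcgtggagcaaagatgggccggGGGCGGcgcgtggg
Cdkn2a, downstream start: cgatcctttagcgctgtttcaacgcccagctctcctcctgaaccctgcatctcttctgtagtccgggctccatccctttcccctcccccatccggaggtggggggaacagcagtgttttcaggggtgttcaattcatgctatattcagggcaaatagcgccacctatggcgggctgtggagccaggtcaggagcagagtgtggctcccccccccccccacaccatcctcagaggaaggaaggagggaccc

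The Cdkn1a window shown (chr17:29090729-29090978) held 2 p53 decamers, whereas the window of its other start (chr17:29093519-29093768, not shown) held 0 and had 2 GC boxes. Of the other targets, the Mdm2 window (chr10:117710759-117711008) and the Ccng1 window (chr11:40755287-40755536) held 1 each. Of 32851 promoter windows of this length, 7.13% held such a decamer. The upstream Cdkn2a window (chr4:89294620-89294869) held 1 E2F word, which 1.86% of windows held, and 2 GC boxes, which 32.7% held. The downstream Cdkn2a window (chr4:89282193-89282442) held none of the motifs searched. A match is a description of letters and not of a bound site.

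The D-type cyclins differed in the cells that carried them. Ccnd1 was high in endothelial, epithelial and mural cells, whereas Ccnd2 was high in T cells, mural cells and fibroblasts and nearly missing from epithelium. Values are given below in the order fresh 10x 1, fresh 10x 2, stored 10x, BD 1, BD 2. Epithelial Ccnd2 stood at 0.545, 0.629, 1.17, 1.14 and 1.26 CPM, and stromal Ccnd2 at 154, 150, 125, 197 and 184 CPM. The groups did not overlap, and the fitted epithelial level was lower by 7.31 ± 0.20 (SE) on the log2 scale (edgeR quasi-likelihood test blocked by library, Benjamini-Hochberg adjusted p = 1.68e-07, n = 5 libraries). After thinning every cell to 2000 UMIs, 0.11 to 0.34% of epithelial cells and 19.4 to 25.3% of stromal cells held a Ccnd2 UMI, and without thinning the shares were 0.66 to 1.45% and 49.7 to 63.2%. The epithelial Ccnd2 level was 0.353 to 0.940% of the stromal level, while the fibroblast markers in epithelial cells were at 0.184 to 0.344% of theirs, and the part of free RNA in the epithelial Ccnd2 signal was not tested. Basal keratin (Krt5, Krt14) cells, at 5.53 ± 4.72 CPM (SD, n = 5), had the highest Ccnd2 mean of the epithelial clusters.

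Ccnd1 stood at 139, 225, 169, 231 and 208 CPM in epithelial cells. Stromal Ccnd1 stood at 130, 145, 67.6, 35.2 and 22.5 CPM. Epithelial cells were higher in 5 of 5 libraries, with a log2 difference of 1.63 ± 0.42 (SE; adjusted p = 0.00983 in edgeR), although the groups overlapped. The stromal values were ordered nearly as the endothelial share of each library. Endothelial cells alone reached 340 ± 20.7 CPM (SD, n = 4 libraries), more than epithelial cells at 195 ± 39.2 (n = 5), and fibroblasts alone were at 20.1 ± 5.39 (n = 5). Against fibroblasts the epithelial level was higher by 3.37 on the log2 scale, and against endothelial cells it was lower, at -0.64 (adjusted p = 0.000444); the endothelial comparison was added after seeing the data. Mural cells, at 169 ± 45.4 CPM (n = 3), did not differ from epithelial cells beyond the spread, and macrophages followed at 91.4 ± 20.3 CPM (n = 5).

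**Figure D1:**
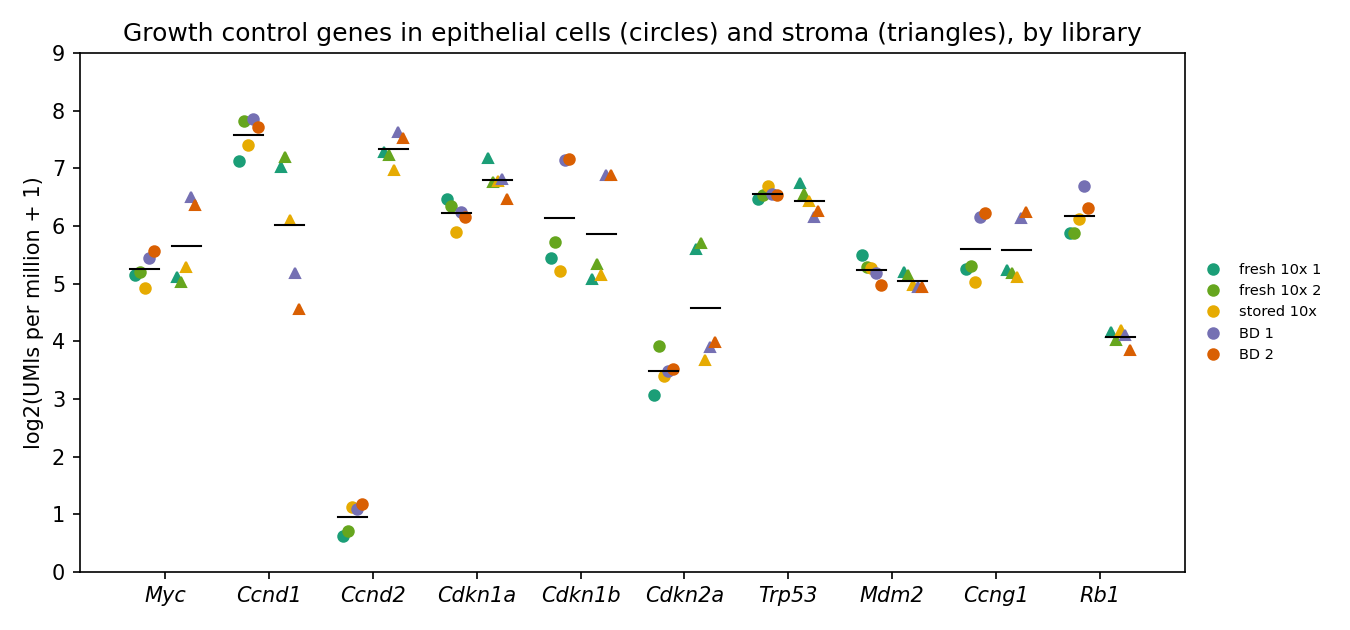
Level of each of the 10 genes in epithelial cells (circles) and stroma (triangles), as log2(UMIs per 1000000 + 1), with 1 point per library (colours) and a line for the mean over the 5 libraries. Epithelial Ccnd2 (0.545 to 1.26 CPM) lies far below stromal Ccnd2 (125 to 197 CPM), and epithelial Rb1 lies above stromal Rb1 in every library.

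Rb1, the gene for the protein that the D-type cyclins and their kinases switch off, was an epithelial-high gene. Epithelial cells held 57.7, 57.8, 68.7, 102 and 78.8 CPM (order as above), and stroma 17.0, 15.3, 17.3, 16.2 and 13.4 CPM. The groups did not overlap, and the difference was 2.26 ± 0.12 on the log2 scale (edgeR adjusted p = 2.62e-06, 5 of 5 libraries). Rb1 was lowest in fibroblasts, at 11.3 ± 3.49 CPM (SD, n = 5). T cells, macrophages, endothelial and mural cells lay between 27.0 and 41.1 CPM on average, with neighbours that did not differ beyond their spread. Within epithelium, Rb1 averaged 151 ± 44.3 CPM in the cluster led by Spp1, Fcgbp, Ltf and Npy, 36.7 ± 12.5 in the cluster led by Scgb1b27 and Prh1, and 34.7 ± 8.02 in the cluster led by the mitotic genes Ube2c and Birc5.

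Of the 10 genes, 7 differed between epithelial and stromal cells: 4 were higher in epithelium and 3 lower. With 71.5% of the 15042 genes tested called, that count is close to the background. Among the kinase inhibitors, Cdkn1a was lower in epithelium. Its epithelial level was 88.0, 80.4, 58.6, 74.3 and 70.0 CPM, and its stromal level 145, 107, 109, 112 and 87.0 CPM. The difference was -0.51 ± 0.09 on the log2 scale (edgeR adjusted p = 0.00121), in the same direction in 5 of 5 libraries. Cdkn1a was highest in macrophages at 265 ± 109 CPM (SD, n = 5), followed by endothelial cells at 142, fibroblasts at 108 and epithelial cells at 74.3. In non-cycling cells alone the epithelial to stromal difference was -0.31 and was not called (adjusted p = 0.0726). Cdkn1b, the gene of p27, was higher in epithelium by a small amount, 0.34 ± 0.08 on the log2 scale (adjusted p = 0.00674). Without the library block this was not called (edgeR adjusted p = 0.703), nor was it with all other named cells or endothelial cells alone as the stroma. The BD Rhapsody libraries held 141 and 143 CPM of Cdkn1b in epithelium and 117 and 118 CPM in stroma. The 10x libraries held 36.1 to 51.6 CPM in epithelium and 32.8 to 39.3 CPM in stroma. The part of this gap in the lost call was not tested.

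Cdkn2a was lower in epithelium, at 7.38, 14.2, 9.5, 10.2 and 10.5 CPM, than in stroma, at 47.5, 50.9, 11.7, 14 and 14.9 CPM. The difference was -1.11 ± 0.35 on the log2 scale (edgeR adjusted p = 0.0210). It lay in 5 of 5 libraries, but it was large in the fresh 10x pair alone, and without fresh 10x 2 it was -0.96 and was not called (adjusted p = 0.0787), nor was it with a marker gate for the classes or with all other named cells as the comparison. The stromal signal came mostly from a single fibroblast cluster. It was also uneven between cells. The 10 highest stromal cells held 46.6, 60.1, 70.4, 66.7 and 71.9% of the stromal Cdkn2a UMIs, and 6.07 to 18.7% of stromal cells held any. In the cluster led by Cilp, Lrrc15, Thbs4 and Tnc, matrix genes of fibrotic tissue, Cdkn2a stood at 85.8, 111, 32.1, 53.1 and 40.7 CPM. In the cluster led by Reg1, Efemp1, Clec3b and Sfrp4, it stood at 0.814 to 7.45 CPM, from 2 to 21 UMIs per library. The values of the 2 fibroblast clusters did not overlap over the 5 libraries; no test was run, as the clusters were drawn from the same cells. The first cluster made up 160 of 193 fibroblasts in fresh 10x 1 and 79 of 120 in fresh 10x 2, but 93 of 314, 99 of 334 and 60 of 229 in the other libraries. Within epithelium, Cdkn2a was highest in the cluster led by Smr2, Wif1 and Arg1, at 42.9 ± 9.53 CPM (SD, n = 4 libraries, without fresh 10x 1), and lowest in the cluster led by the milk protein genes Glycam1, Csn2 and Wap, at 2.65 CPM.

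**Figure D2:**
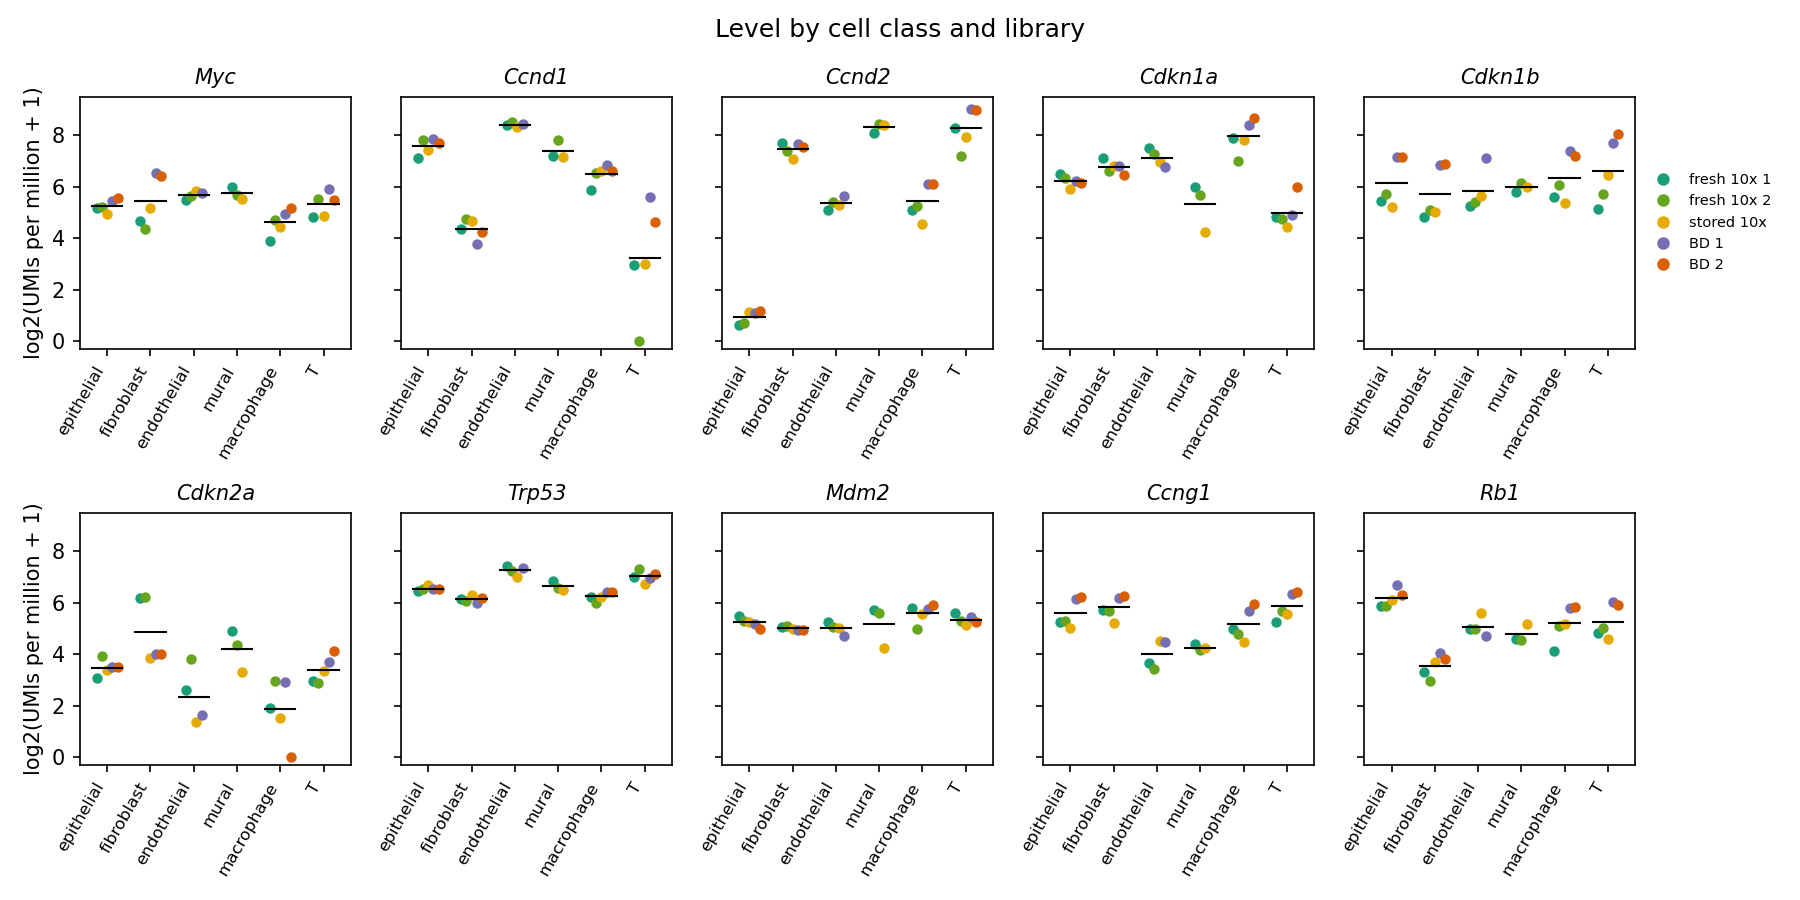
Level of each of the 10 genes by cell class, as log2(UMIs per 1000000 + 1), with 1 point per library (colours) holding at least 20 cells of the class and a line for the mean of the points. Ccnd1 is highest in endothelial cells (mean 340 CPM), Cdkn1a in macrophages and Rb1 in epithelial cells, while Ccnd2 is high in T and mural cells.

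Trp53 itself varied little between the compartments. It stood at 87.5, 91.4, 103, 92.8 and 92.0 CPM in epithelium and 107, 93.0, 85.4, 70.2 and 75.7 CPM in stroma. The difference of 0.20 (approximate 95% interval 0.02 to 0.39) missed the threshold (edgeR adjusted p = 0.0785). The 95% intervals in this text are normal approximations from the SE, narrower than this test allows with so few libraries. Without fresh 10x 1 the difference was 0.28 and passed (adjusted p = 0.0209). Endothelial cells, at 153 CPM, and T cells, at 131 CPM, lay above epithelium at 93.3 ± 5.64, and against endothelial cells alone the epithelial level was lower by 0.49 on the log2 scale (adjusted p = 0.00502). Its target and inhibitor Mdm2 was higher in epithelium by 0.29 ± 0.09 (adjusted p = 0.0243), in 5 of 5 libraries and with values of 30.4 to 44.3 CPM against 29.5 to 35.6, a call lost in 6 of 15 alternatives, among them without fresh 10x 1 (0.23), without stored 10x (0.31) and without BD 1 (0.25). Mdm2 stood out in the basal keratin cluster, at 85.3 ± 23.9 CPM (SD, n = 5) with a range of 58.4 to 121, while the other epithelial clusters averaged 30.4 to 41.5 CPM. Ccng1, a cyclin family member induced by p53, had 31.7 to 73.5 CPM in epithelium and 33.8 to 74.4 CPM in stroma. Its difference was 0.08 with a 95% interval of -0.07 to 0.24 (adjusted p = 0.362). Ccng1 was called in 2 of 15 alternatives, with endothelial cells alone and with all other named cells as the stroma. The highest difference over the alternatives was 1.72. By class, Ccng1 fell into a group of T cells, fibroblasts, epithelial cells and macrophages (37.9 to 60.1 CPM) and a group of mural and endothelial cells (18.3 and 16.2 CPM).

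Myc was 34.6, 35.6, 29.4, 42.4 and 46.5 CPM in epithelium and 33.5, 31.5, 37.9, 89.2 and 81.5 CPM in stroma. The compartments were close in the 10x libraries, whereas stroma lay above epithelium in both BD Rhapsody libraries. The pooled difference of -0.36 (95% interval -0.80 to 0.08) was not called (edgeR adjusted p = 0.184). The cluster of Efemp1 and Clec3b fibroblasts held 106 and 92.2 CPM of Myc in BD 1 and BD 2 and 18.7, 26.3 and 40.9 CPM in the 10x libraries. Macrophages had the lowest class mean, 24.8 CPM.

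**Figure D3:**
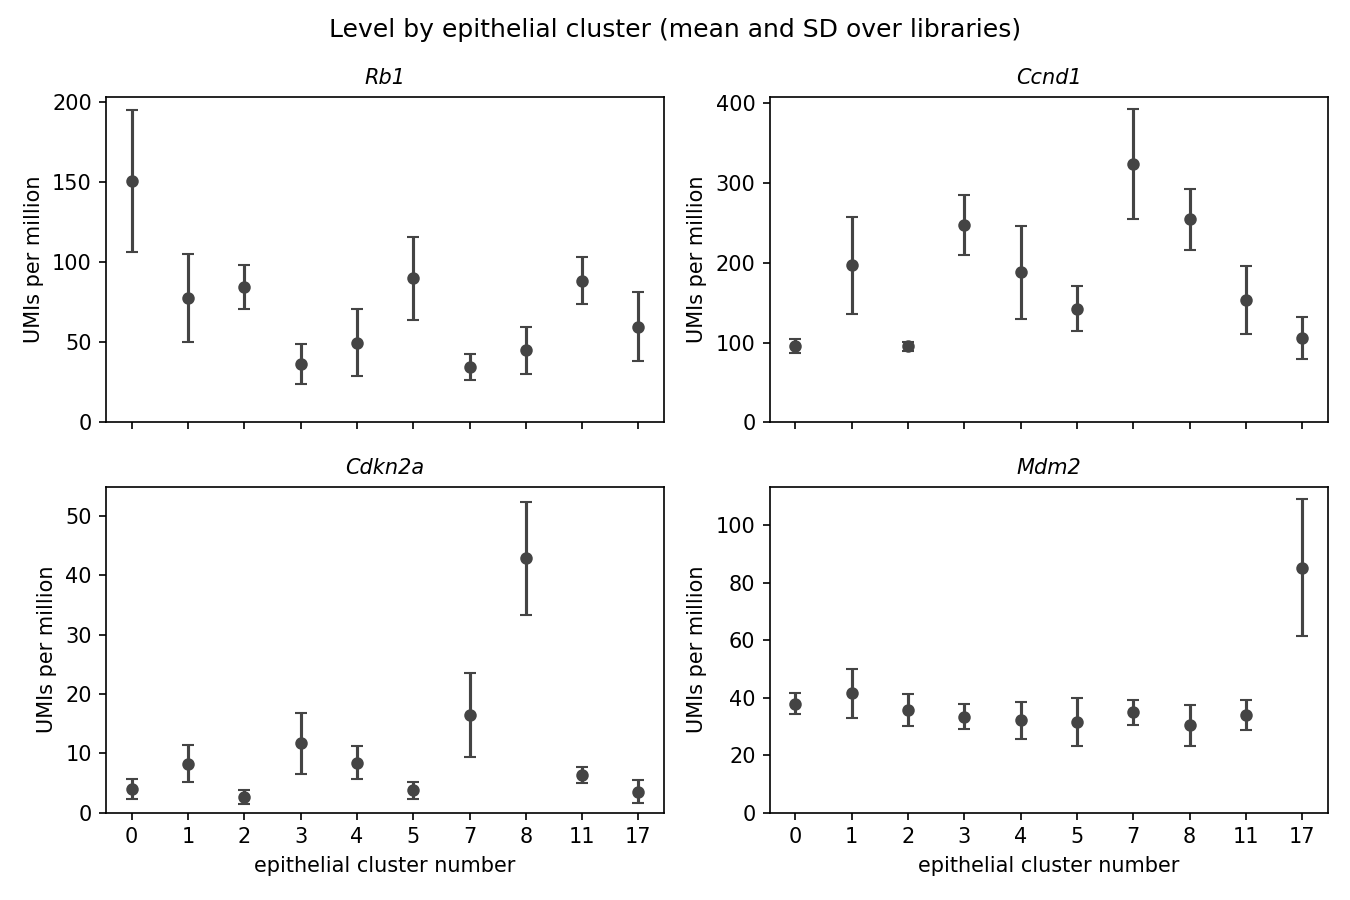
Mean UMIs per 1000000 of Rb1, Ccnd1, Cdkn2a and Mdm2 in each epithelial cluster (horizontal axis: cluster number), with bars for the SD over libraries. Rb1 peaks at 151 CPM in cluster 0 (led by Spp1), Ccnd1 at 324 in cluster 7 (Ube2c), Cdkn2a at 42.9 in cluster 8 (Smr2) and Mdm2 at 85.3 in cluster 17 (Krt5).

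Cycling was called from 46 S-phase and G2/M genes, none of them among the 10: a cell thinned to 2000 UMIs was cycling with at least 3 UMIs of these genes and non-cycling with 0, and cells with 1 or 2 were in neither group. On this measure 14.2 to 16.8% of epithelial cells cycled, which gave 191 to 497 cycling and 815 to 1777 non-cycling cells per library. Of the cycling cells, 16 to 77 per library sat at exactly 3 UMIs. Cycling cells had a median of 20219 to 28324 UMIs and non-cycling cells 9306 to 12401, so depth moved with the contrast, and where a call changed within cells of 5000 to 20000 UMIs the value there is given.

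In cycling epithelial cells Ccnd1, Cdkn2a and Trp53 rose and Rb1 fell, each without overlap between the groups. Ccnd1 stood at 244, 352, 267, 381 and 325 CPM in cycling and 93.4, 167, 118, 164 and 147 CPM in non-cycling epithelial cells, a difference of 1.18 ± 0.05 on the log2 scale (edgeR adjusted p = 1.04e-09). Rb1 stood at 27.7, 31.5, 39.0, 49.3 and 43.4 CPM in cycling and 69.2, 74.2, 82.5, 123 and 96.8 CPM in non-cycling cells, a difference of -1.24 ± 0.06 (adjusted p = 2.48e-09). Transcripts of the cyclin and of the protein it inactivates thus moved in opposite directions in 5 of 5 libraries. Cdkn2a stood at 11.2, 24.6, 14.8, 18.2 and 19.2 CPM in cycling and 5.74, 9.60, 6.18, 6.92 and 6.70 CPM in non-cycling cells (1.30 ± 0.09, adjusted p = 9.87e-08). Trp53 stood at 109, 123, 130, 131 and 119 CPM in cycling and 80.3, 77.1, 88.7, 75.5 and 79.6 CPM in non-cycling cells (0.59 ± 0.05, adjusted p = 7.83e-07). These 4 calls held in all 14 alternatives.

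Cdkn1a fell in cycling cells, from 101, 103, 63.0, 82.3 and 71.8 CPM to 51.5, 51.3, 50.3, 60.1 and 66.6 CPM (-0.57 ± 0.11, edgeR adjusted p = 0.000562). Within cells of 5000 to 20000 UMIs the difference was -0.03, and without the cluster led by mitotic genes it was -0.14; neither was called. Myc fell by 0.23 ± 0.07 on the log2 scale (adjusted p = 0.0125), in 4 of 5 libraries, and was not called in cells of 5000 to 20000 UMIs, without the library block, without stored 10x (-0.18) or without the mitotic cluster. Ccnd2, Cdkn1b, Mdm2 and Ccng1 did not pass the test, with differences of -0.07, -0.13, -0.13 and 0.03 and adjusted p of 0.890, 0.0749, 0.0696 and 0.664. For Ccng1 the 95% interval was -0.07 to 0.13, but within cells of 5000 to 20000 UMIs it was lower in cycling cells, at -0.29 (adjusted p = 0.0322). Without BD 2 Cdkn1b passed at -0.18 (adjusted p = 0.0490). In all, 6 of the 10 genes were called, beside 67.8% of the 13335 genes tested.

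**Figure D4:**
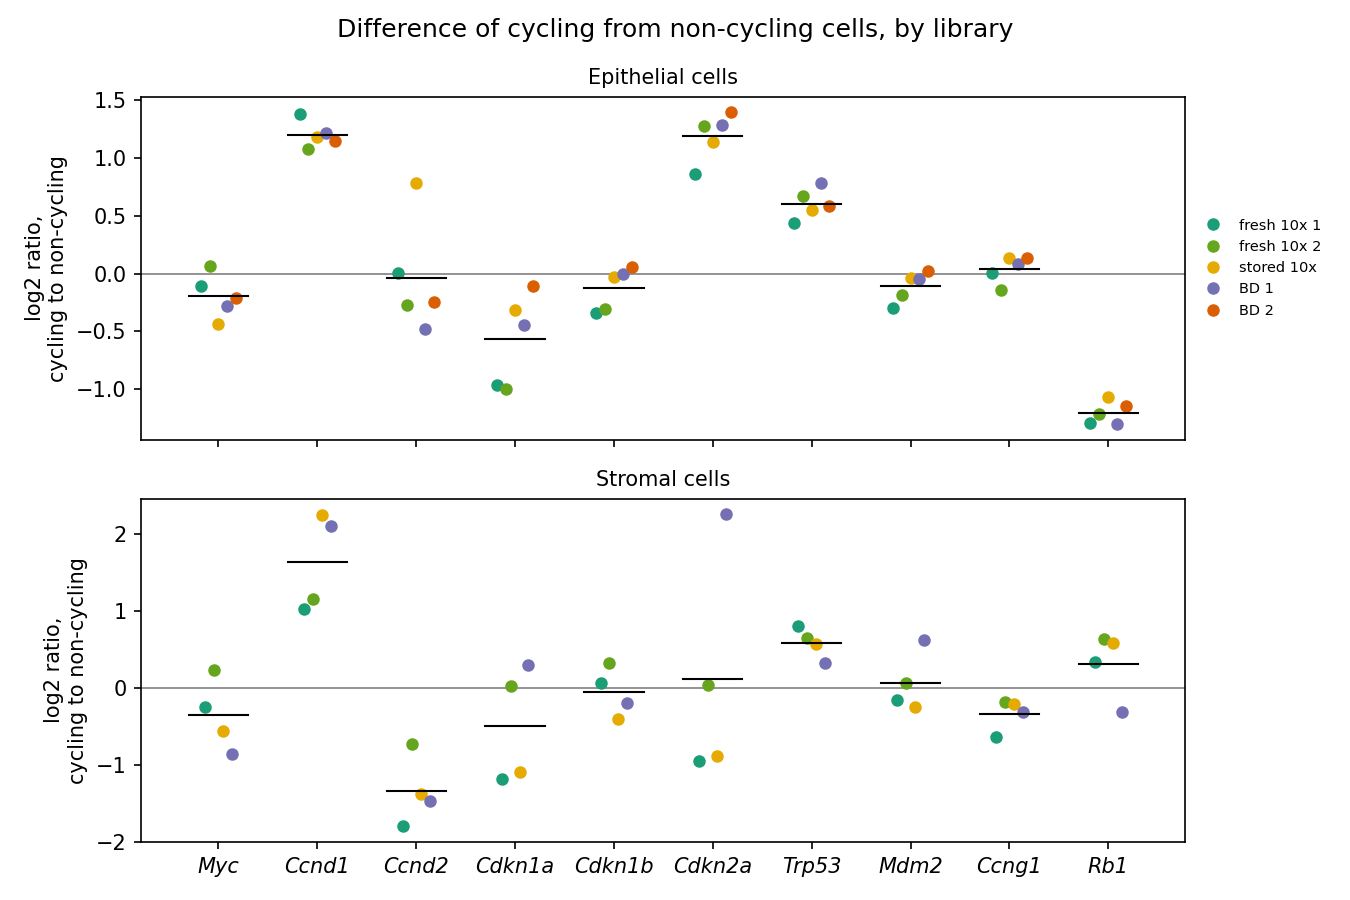
Log2 ratio of cycling to non-cycling cells (each level as UMIs per 1000000 + 1) for the 10 genes, in epithelial cells of 5 libraries (top) and stromal cells of 4 libraries (bottom), with 1 point per library (colours) and a line for the mean. In epithelium all points of Ccnd1, Cdkn2a and Trp53 lie above 0 and all points of Rb1 and Cdkn1a below it, and in stroma the Rb1 points lie on both sides.

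The mitotic cluster held 55.7 to 72.9% of the cycling epithelial cells, so the contrast was repeated inside 6 epithelial clusters with at least 10 cells of each kind, in 21 library and cluster pairs. Ccnd1 was higher in cycling cells in 21 of 21 pairs, with cluster means of 0.46 to 1.27 on the log2 scale. Trp53 was higher in 20 of 21, with means of 0.20 to 0.57, and Rb1 was lower in 19 of 21, with means of -1.04 to -0.32. Cdkn2a was higher in 14 of 21 and its cluster means ran from -0.65 to 2.06. Cdkn1a, which fell in the pooled contrast, was lower in 12 of 21 and higher in 9, with means of -0.83 to 0.99. The pairs share libraries and are a description.

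In stroma, cycling cells were compared in the 4 libraries with at least 20 of them (26 to 39 cells); BD 2 had 12. Ccnd1 rose from 106, 110, 41.3 and 22.6 CPM in non-cycling to 216, 247, 201 and 101 CPM in cycling stromal cells of fresh 10x 1, fresh 10x 2, stored 10x and BD 1 (1.51 ± 0.18, edgeR adjusted p = 9.63e-06). Ccnd2 fell from 181, 166, 136 and 206 CPM to 51.5, 99.7, 51.6 and 73.8 CPM (-1.42 ± 0.16, adjusted p = 6.42e-06), with no overlap. Trp53 rose by 0.52 ± 0.13 (adjusted p = 0.0110), in 4 of 4 libraries, but was 0.41 and not called without fresh 10x 1 (adjusted p = 0.105), nor was it called within cells of 5000 to 20000 UMIs (0.60, adjusted p = 0.0547) or with the G2/M list alone (0.53, adjusted p = 0.0896). Without the library block neither Ccnd1 (adjusted p = 0.208) nor Trp53 (0.329) was called. Endothelial cells, which are high in Ccnd1 and Trp53 and low in Ccnd2, were 59.0, 46.9, 37.1 and 23.1% of the cycling but 33.2, 24.5, 12.5 and 10.1% of the non-cycling stromal cells. Among fibroblasts alone (10 to 20 cycling cells in each of 5 libraries), Ccnd2 still fell by 1.33 (adjusted p = 6.15e-07), but Ccnd1, at 1.07, and Trp53, at 0.21, were not called (adjusted p = 0.0665 and 0.468). Ccnd2 averaged 272 CPM in the Cilp and Thbs4 fibroblast cluster and 106 CPM in the Efemp1 and Clec3b cluster. The part of the mix of these clusters in the fibroblast fall of Ccnd2 was not tested. Among endothelial cells alone (13 to 23 cycling cells in 3 libraries), Ccnd1 differed by 0.37, Ccnd2 by -0.48 and Trp53 by 0.50, none of them called (adjusted p = 0.241, 0.598 and 0.213). Cdkn1a differed by -0.54 (adjusted p = 0.0711), and it passed in 7 of 14 alternatives, at -0.58 to -1.39. Among these were cells of 5000 to 20000 UMIs (-0.84, adjusted p = 0.00454), the G2/M list alone (-1.39, adjusted p = 9.59e-07), and the fits without fresh 10x 2 (-0.71) and without BD 1 (-0.79). Myc likewise differed by -0.54 (adjusted p = 0.0742) and passed in fibroblasts alone (-0.89, adjusted p = 0.0196), without the low-count filter (-0.59) and without fresh 10x 2 (-0.71, adjusted p = 0.0252). Rb1 was not called in stroma, at 24.9, 21.0, 22.4 and 13.4 CPM in cycling and 19.4, 13.2, 14.6 and 16.8 CPM in non-cycling stroma (0.25 ± 0.26, adjusted p = 0.553). In all, 3 of the 10 genes were called, beside 21.8% of 10453 genes.

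Whether cycling cells differed from non-cycling cells by another amount in epithelium than in stroma was tested as an interaction, which 11.3% of 13655 genes passed. Rb1 was the only one of the 10 to pass, with an interaction of -1.56 ± 0.25 on the log2 scale (edgeR adjusted p = 0.000913). With fibroblasts as the stroma it was -2.09, and with endothelial cells as the stroma it was -0.83 and not called (adjusted p = 0.356). Ccnd2 (1.44, adjusted p = 0.0615) and Cdkn2a (1.23, adjusted p = 0.0548) missed the threshold, and both passed without BD 1 (2.02 and 1.71, adjusted p = 0.0350 and 0.00219). Ccnd2 also passed without fresh 10x 2 (1.78, adjusted p = 0.0259). Epithelial Ccnd2 was nearly missing on both sides of this contrast, at 0.510 to 1.72 CPM in cycling and 0.507 to 1.53 CPM in non-cycling cells. Both Ccnd2 and Cdkn2a passed, in the same direction, with fibroblasts as the stroma and without the low-count filter. Without stored 10x the number of genes called fell from 1547 to 784, and without BD 1 to 1019. For Ccnd1 the interaction was -0.36, with a 95% interval of -0.76 to 0.04, and with endothelial cells as the stroma it turned to 0.80 and passed (adjusted p = 0.0276).

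Platform and storage were set against the same genes. The epithelial to stromal difference was larger on BD Rhapsody than on 10x for Ccnd1 (2.06, edgeR adjusted p = 0.0641) and shifted towards stroma for Myc (-1.09, adjusted p = 0.0683), but 0 of the 10 genes and 0.206% of 15042 genes were called; at an unadjusted p under 0.05, 2658 genes passed. Without stored 10x, 2500 genes were called, with Ccnd1 at 2.20 and Myc at -1.40 (adjusted p = 0.000247 and 0.000481), Cdkn2a at 1.43 and Cdkn1b at -0.44, whereas leaving out any other library left at most 1 gene. With fibroblasts alone as the stroma Ccnd1 was at 1.07 and Myc at -1.19, neither called (adjusted p = 0.324 for both). In epithelial cells, BD 1 exceeded fresh 10x for Cdkn1b by 1.44 ± 0.12 (edgeR adjusted p = 0.000119), for Ccng1 by 0.75 ± 0.11 (adjusted p = 0.00106) and for Rb1 by 0.67 ± 0.10 (adjusted p = 0.00143), 3 of 10 genes beside 42.5% of 15453. The labels tie platform to library, and whether the tumours were the same is not given. The median mitochondrial share of epithelial cells was 15.7% in BD 1 and 19.4% in BD 2, against 6.64 to 7.43% in the 10x libraries. In stroma it was 6.29 and 8.03%, against 4.36 to 4.73%. The part of this gap in the platform differences was not tested. Stored against fresh 10x gave 0 called genes of the 10 in edgeR and in DESeq2, beside 1.39% of 15453 genes, with 2508 genes at an unadjusted p under 0.05. The nearest were Cdkn1a, at -0.51 (adjusted p = 0.0950), and Cdkn1b, at -0.36 (adjusted p = 0.242). Both comparisons rest on the spread of the fresh 10x pair. With 1 fresh library left out, BD 1 and BD 2 were taken as 1 group and the lone libraries were assumed to vary like that pair. Cdkn1a was then lower in stored 10x, at -0.43 without fresh 10x 1 and -0.61 without fresh 10x 2.

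The genes around these regulators were read from lists of p53 targets, p53 regulators, the kinase and Rb axis, the Myc network and Myc targets. The lists were written with earlier results of these data known. Of 23 p53 targets, 7 were higher and 9 lower in epithelium, with a median of -0.01 on the log2 scale against 0.09 over all genes. Over all genes 38.1% were higher and 33.4% lower, so these counts are near the background. Perp, an epithelial adhesion gene, was higher by 4.42 and Eda2r, a TNF receptor family member, lower, at -3.45. In cycling epithelial cells 7 p53 targets rose and 7 fell (median 0.08 against -0.04), beside 33.0% higher and 34.8% lower over all genes: Pidd1 rose by 1.65 and Aen, a nuclease gene, by 1.34, while Fas changed by -1.44 and Trp53inp1 by -1.31. These counts too are near the background. Of 9 p53 regulators tested, 6 rose, led by the checkpoint kinase Chek1 at 4.04, and 3 fell, including Trp63 at -0.68, beside the same shares over all genes.

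Of 22 kinase and Rb axis genes, 17 rose and 2 fell in cycling epithelial cells (median 0.96), and 12 rose and 2 fell in cycling stroma (median 0.97). Over all genes 33.0% rose and 34.8% fell in cycling epithelium, and 11.2% rose and 10.5% fell in cycling stroma. E2f8 rose by 7.15 in cycling epithelium and 6.59 in cycling stroma, E2f7 by 5.75 and 3.88, and Ccne2, a cyclin of the G1 to S transition, by 5.35 and 6.02, and Cdkn1c, another kinase inhibitor, was lower in both (-1.14 and -1.36). Of 22 Myc targets, 18 were higher in epithelium (median 0.76) and 21 rose in cycling epithelial cells (median 1.13), beside 38.1% and 33.0% of all genes, while Myc itself was not called in the former and was lower in the latter. Cad, which starts pyrimidine synthesis, rose by 2.29 and Nolc1, a nucleolar gene, by 1.69. In cycling stroma 12 Myc targets rose and 0 fell (median 0.44 against -0.03), beside 11.2% of all genes that rose. In the interaction test 15 of the 22 had a higher cycling difference in epithelium than in stroma, beside 5.38% of all genes. In the Myc network, 7 of 10 genes tested fell in cycling epithelial cells, beside 34.8% of all genes, led by Mxd4 at -1.47, an antagonist of Myc, whereas Mxd3, an S-phase member of that family, rose by 5.03.

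Over 27 sums of class and library, centred by library, the gene most like Ccnd2 was Lbh (Pearson r = 0.969), the one most like Rb1 was Pnpla2 (r = 0.938), and the one most like Cdkn1a was Sowahc (r = 0.935), from 6731 genes. For Ccnd1 it was Cav2, a caveolar gene (r = 0.918), and for Trp53 Znrf1 (r = 0.904). Closest to Myc was Pkn2 (r = 0.868), and the closest for Mdm2, Dnmt3a, reached 0.782. The sums share libraries and a few cell classes, and these values are descriptions.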

How the data were processed

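Single-cell RNA was measured in 5 libraries of PyMT tumour digests. The deposited values are raw UMI counts with genes and cells as the axes, per the file headers; they are whole numbers and were not normalised. Cell Ranger 3.0.1 and mm10 are named in the submitters' processing notes. Every matrix column was matched to a sample, and 0 were left without one. Of 42562 gene names, 41028 remained after spellings of the same symbol were merged.

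Cells with 200 genes or more that were not marked as doublets entered a joint clustering in scanpy 1.11.5 (2000 variable genes, 30 principal components, 15 neighbours, Leiden resolution 1). The members, the list genes and mitochondrial genes were left out of it, and it gave 21 clusters. Clusters were named from marker lists and 3 stayed unnamed. The levels are UMIs per 1000000 of the summed counts of a class in a library (CPM), for classes of at least 20 cells. Raw counts summed per library and class were tested with edgeR 4.0.16 (quasi-likelihood, TMM, low-count filter) in R 4.3.3, with Benjamini-Hochberg adjustment over all genes and a threshold of 0.05. Epithelial and stromal sums, and cycling and non-cycling sums, come from the same digest, so the pairing is by library and the library is a block in the main fit. Totals per library were 29166129 to 59957945 UMIs. DESeq2 1.42.0, other filters, scalings, class definitions and left-out libraries were alternatives. Those using fibroblasts or endothelial cells alone (except fibroblasts alone as the stroma in the epithelial comparison), and the one without the mitotic cluster, were chosen after seeing the data.

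On simulated counts, 4-fold changes were recovered for 100% of genes in each comparison simulated, and 1.5-fold changes for 98.51% in the epithelial against stromal, 59.70% in the stromal cycling and 38.81% in the storage comparison. The simulation gave every gene the same small spread between libraries and changed only genes above a set level. These shares do not carry over to genes with a wider spread, such as Ccnd1 and Cdkn2a between epithelium and stroma. Nor do they cover genes at low levels, such as Ccnd2 in the epithelial cycling comparison.

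The members and lists were chosen with earlier results of these data known. All 10 members are named. Of each list, up to 3 called genes per direction with the largest change could be named, and the genes most like a member are those with the highest Pearson r of log2(CPM + 1), centred by library, at a mean of at least 20 CPM.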

Additional observations from a re-analysis of the deposited data

Results flagged for a closer look

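The cycling difference of Rb1 differed between epithelial and stromal cells. Rb1 changed by -1.24 ± 0.06 (SE) on the log2 scale in cycling epithelial cells and by 0.25 ± 0.26 in cycling stromal cells. The interaction was -1.56 ± 0.25 (edgeR quasi-likelihood test, adjusted p = 0.000913, 4 libraries). It was lower in epithelium in 4 of 4 of these libraries, whereas stroma was higher in 3 of 4. Endothelial cells formed 23.1 to 59.0% of the cycling and 10.1 to 33.2% of the non-cycling stromal cells, and their mean Rb1 level was 33.4 CPM against 11.3 CPM in fibroblasts. With endothelial cells as the stroma the interaction was -0.83 and missed the threshold (adjusted p = 0.356), and with fibroblasts it was -2.09. The opposite-strand neighbour Rcbtb2 differed by 0.43 in cycling epithelial cells (adjusted p = 1.53e-05), the other direction from Rb1, while Lpar6, whose exon on the opposite strand overlaps Rb1, differed by -0.23 (adjusted p = 0.0135), the same direction. The part of either in the Rb1 counts was not tested.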

How the results depend on the processing

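In epithelial against stromal cells, 7269 to 11451 genes and 5 to 8 of the 10 members were called over 15 alternatives. Against endothelial cells alone Ccnd1 (-0.64), Cdkn2a (1.02) and Trp53 (-0.49) turned direction, and against fibroblasts Ccng1 did (-0.17); the stroma differs by construction. The library pairs the sums; without the replicate block 3915 genes were called in cycling epithelium (9044 with it) and 379 genes and 1 member in cycling stroma (2274 and 3). In cells of 5000 to 20000 UMIs 5726 genes were called in cycling epithelium. Members uncalled in the main comparison turned there as follows: Ccnd2 with cells up to 20% mitochondrial UMIs (0.22), without the mitotic cluster (0.87) and over left-out libraries (-0.64 to 0.26), Ccng1 with at least 5 cycle UMIs (-0.0084), in cells of 5000 to 20000 UMIs (-0.29, where it passed) and over left-out libraries (-0.0038 to 0.058), and Cdkn1b in cells of 5000 to 20000 UMIs (0.035).

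In cycling stroma DESeq2 called 1341 genes, fibroblasts alone 1421, and endothelial cells alone 351 genes and 0 members; no filter and at least 5 cycle UMIs called 5 members, and left-out libraries 2 to 5, the most without fresh 10x 2. Cdkn2a turned with no filter (-0.026), no replicate block (-0.10), at least 5 cycle UMIs (-0.83, where it passed), the G2/M list (-0.61), cells of 5000 to 20000 UMIs (-0.55), fibroblasts (-0.18) and left-out libraries (-0.55 to 0.48). Mdm2 turned with no filter (-0.041), at least 5 cycle UMIs (-0.21), the G2/M list (-0.40), cells of 5000 to 20000 UMIs (-0.37), fibroblasts (-0.10) and left-out libraries (-0.18 to 0.13). Rb1 turned in cells of 5000 to 20000 UMIs (-0.0053) and endothelial cells (-0.40).

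The cycling by compartment interaction was called for 1547 genes, and with endothelial stroma for 164. Over left-out libraries it was called for 784 (without stored 10x) to 1102 genes, with 1 to 3 members. No filter and fibroblast stroma gave 3 members each, and over all 8 alternatives 164 to 1934 genes were called. With endothelial stroma Ccnd1 (0.80, where it passed), Cdkn2a (-3.51), Trp53 (-0.020) and Ccng1 (-0.74) turned, with fibroblast stroma Cdkn1a (0.049) and Cdkn1b (0.14), and over left-out libraries Cdkn1a (-0.57 to 0.046), Cdkn1b (-0.25 to 0.064) and Trp53 (-0.13 to 0.17).

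Platform by compartment was called for 31 genes, with RLE size factors for 20, no filter 713 (2 members), fibroblast stroma 9, and over left-out libraries for 0 to 2500, with 0 to 4 members, the most without stored 10x. With fibroblast stroma Ccnd2 (0.34) and Ccng1 (0.40) turned, and over left-out libraries Ccnd2 (-0.36 to 0.35), Cdkn1a (-0.23 to 0.30) and Cdkn1b (-0.44 to 0.0094). Storage gave 215 genes, DESeq2 137, no filter 495, and with 1 fresh library left out (and BD 1 and BD 2 as 1 group) 885 to 1062 genes and 1 to 2 members; Ccnd1 (-0.39 to 0.26), Cdkn2a (-0.56 to 0.34) and Mdm2 (-0.26 to 0.0081) turned. BD 1 against fresh 10x gave 6562 genes, and DESeq2 3814. Over 7 alternatives 3814 to 8613 genes and 3 to 6 members were called, with 6 members for BD 1 and BD 2 as 1 group. With a fresh library left out, Ccnd1 (-0.14 to 0.52) and Cdkn2a (-0.55 to 0.35) turned. For all of these the cause was not tested. No filter moved the median of all genes by 0.245 in the epithelial comparison. In cycling stroma 51.6% of calls were higher, 87.1% without the replicate block and 43.6% with no filter. The stromal cycling comparison rested on 26 to 39 cycling cells per library.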

Other observations

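Single cells differed widely in Ccnd1. In fresh 10x 2, 1 epithelial cell of the mitotic cluster held 301 of the Ccnd1 UMIs, 5.25% of all epithelial Ccnd1 UMIs of that library, among 122211 UMIs in the cell. The next cell held 81. Without that cell the epithelial Ccnd1 level of the library was 215 CPM instead of 225. In the other libraries the highest cell held 58 to 155 Ccnd1 UMIs.

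Ccnd2 differed between the fibroblast clusters too. It stood at 227, 213, 213, 416 and 291 CPM in the cluster led by Cilp and Thbs4 and at 91.3, 72.6, 93.4, 122 and 150 CPM in the cluster led by Efemp1 and Clec3b, in fresh 10x 1, fresh 10x 2, stored 10x, BD 1 and BD 2. The values did not overlap. Cdkn1a was higher in the first cluster in 5 of 5 libraries, at 127 to 203 CPM against 11.7 to 102 CPM. The clusters were drawn from the same cells, so no test was run.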
